A study of Mus musculus with 15 samples.

Results

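Transcript levels of 10 genes that encode chaperones and folding helpers of the endoplasmic reticulum (ER) were examined in 5 mouse tissues under 3 feeding regimens. The genes were Hspa5, Creld2, Hsp90b1, Pdia4, Pdia6, Calr, Sdf2l1, Manf, Hyou1 and Dnajb11, and they are 10 of the genes listed at 23589 named loci. They were chosen by name, as ER chaperones, after Creld2 had been seen to rise with diet in liver, fat and colon; the diet values of Creld2 are therefore given below as a description only, and counts of changed genes are given over the 9 other members.

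Male C57BL/6 mice were fed ad libitum (AL), were given 60% of the AL intake (dietary restriction, DR) from 4 months of age for 1 month, or were returned to AL feeding for 2 months after that month of DR (DR-AL). Liver, epididymal fat, colon, hypothalamus and hippocampus were taken at 5 months of age from AL and DR mice and at 7 months from DR-AL mice, so a difference of DR-AL from either other group cannot be told apart from a difference in age. Each tissue and diet had 1 RNA-Seq library of RNA pooled from 5 mice, 15 libraries in all, and a comparison of diets within a tissue is therefore a comparison of 2 libraries with no replicate. The libraries held 21767088 to 40500130 counts on named loci, and levels are given in CPM, that is, counts scaled to the same total of named loci in every library.

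As sums, the markers of each labelled tissue were high in its own libraries. Single markers were exceptions. The hepatocyte marker Alb is listed at 0 counts in all 15 libraries. The neuron marker Slc17a7 was at 1.95 CPM in hypothalamus of AL mice, below its 7.09 CPM in fat of DR-AL mice. The fat libraries stood apart. Markers of hepatocytes (6 genes) summed to 5001 CPM in fat of AL mice against 45.6 CPM in fat of DR mice and 12.6 CPM in fat of DR-AL mice, while 7 markers of testis germ cells summed to 4.77, 583 and 2818 CPM and 6 markers of epididymis epithelium to 908, 3203 and 5112 CPM in the same order. The 6 adipocyte markers summed to 37622, 30566 and 25834 CPM. The part of these other cells in the fat results was not tested.

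Proteins that enter the secretory pathway fold in the lumen of the ER, where Hsp70-type and Hsp90-type chaperones hold unfolded chains, lectin chaperones bind their sugars and protein disulfide isomerases form and rearrange disulfide bonds. When unfolded proteins accumulate, the sensors IRE1 (gene Ern1), PERK (gene Eif2ak3) and ATF6 start the unfolded protein response, in which ATF6 and the spliced form of XBP1 raise transcription of the chaperone genes. Liver and the mucus-producing cells of the colon secrete large amounts of protein, and their need for these chaperones is well known.

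A known feature of such genes is the ER stress element (ERSE), which is CCAAT, any 9 bases and then CCACG, bound by ATF6 together with NF-Y. Promoter windows from 250 bases before to 50 bases after the start site were found in RefSeq (GRCm38.p6) for 8 of the 10 members, all but Manf and Hyou1. An exact ERSE on either strand was in the windows of 5 of these 8 genes, against 39 of 32851 windows of the whole table (0.119%). A second form, ERSE-II (ATTGG, any base, CCACG), was in 12 of 32851 windows (0.0365%) and in 1 of the 8, Dnajb11. The core of the unfolded protein response element, TGACGTGG, was in 222 windows (0.676%) and in none of the 8. CCACG alone, which is part of both ERSE forms, was in 10765 windows (32.8%) and in all 8, and it was the only searched sequence in the windows of Pdia4 and Sdf2l1. A match is a description of the sequence and says nothing about binding. The stretches around the 6 genes' ERSE or ERSE-II matches are shown because 6 of the 8 genes share this feature. The genes were chosen by name as ER chaperones, and ERSE is a known feature of such genes. The matches are therefore not independent of the choice, although no sequence was used for it. Capitals mark the match, and CGTGG to ATTGG is an ERSE read on the other strand.
Hspa5: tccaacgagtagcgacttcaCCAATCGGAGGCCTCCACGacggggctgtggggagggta
Creld2: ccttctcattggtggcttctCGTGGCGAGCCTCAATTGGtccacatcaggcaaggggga
Hsp90b1: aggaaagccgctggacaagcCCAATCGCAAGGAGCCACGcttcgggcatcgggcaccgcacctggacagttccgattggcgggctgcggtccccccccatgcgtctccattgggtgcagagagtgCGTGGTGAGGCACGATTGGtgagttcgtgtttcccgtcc
Pdia6: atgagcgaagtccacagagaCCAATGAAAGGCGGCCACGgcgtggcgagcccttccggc
Calr: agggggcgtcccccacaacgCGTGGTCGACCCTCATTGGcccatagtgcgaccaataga
Dnajb11: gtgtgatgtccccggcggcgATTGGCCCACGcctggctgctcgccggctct

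The printed stretch of Hspa5 lies at chr2:34772005-34772063 on the plus strand, and its match runs from base -65 to base -47 from the start site. That of Creld2 is chr15:88819500-88819558 on the plus strand, with the match on the opposite strand at -126 to -108. That of Hsp90b1 is chr10:86705513-86705676 on the minus strand and holds a match at -212 to -194 and another, on the opposite strand, at -107 to -89. That of Pdia6 is chr12:17266471-17266529 on the plus strand (match at -98 to -80), that of Calr is chr8:84847055-84847113 on the minus strand (match on the opposite strand at -162 to -144), and that of Dnajb11 is chr16:22857832-22857882 on the plus strand, with its ERSE-II 7 to 17 bases after the start.

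In counts, the members other than Creld2 that were higher in DR-AL than in AL mice were 6 of 9 in liver (15% of all genes tested were higher there), 9 in colon (5.83%), 4 in hippocampus (3.99%) and none in hypothalamus (6.06%). In fat they were 8 of 9 (46.0% of all genes), but the deposited FPKM of fat gave none higher and 8 lower, and DESeq size factors 6 higher and 1 lower. The summed level of these 9 genes was 2657, 3289 and 3464 CPM in liver of AL, DR and DR-AL mice, 1628, 2043 and 2504 CPM in fat, 1466, 2126 and 2397 CPM in colon, 1811, 1854 and 1830 CPM in hypothalamus, and 1162, 1278 and 1345 CPM in hippocampus. On this scale the AL library had the lowest sum of the 3 in every tissue, although the sums in hypothalamus lay close together. The single members in hypothalamus did not share this order. There Hsp90b1 and Calr were lowest in AL, Hspa5 and Manf were lowest in DR-AL, and Hyou1 and Sdf2l1 were highest in AL. A gene is counted as changed between 2 libraries when a Z test on the square roots of scaled counts gave a Benjamini-Hochberg adjusted p below 0.05 and the higher level was at least 25% above the lower. This test covers counting error only. With a biological coefficient of variation of 0.1 assumed between pools, fewer members passed wherever any had been called, as given for each tissue. Folds below are followed by their 95% exact counting interval on the log2 scale.

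**Figure D1:**
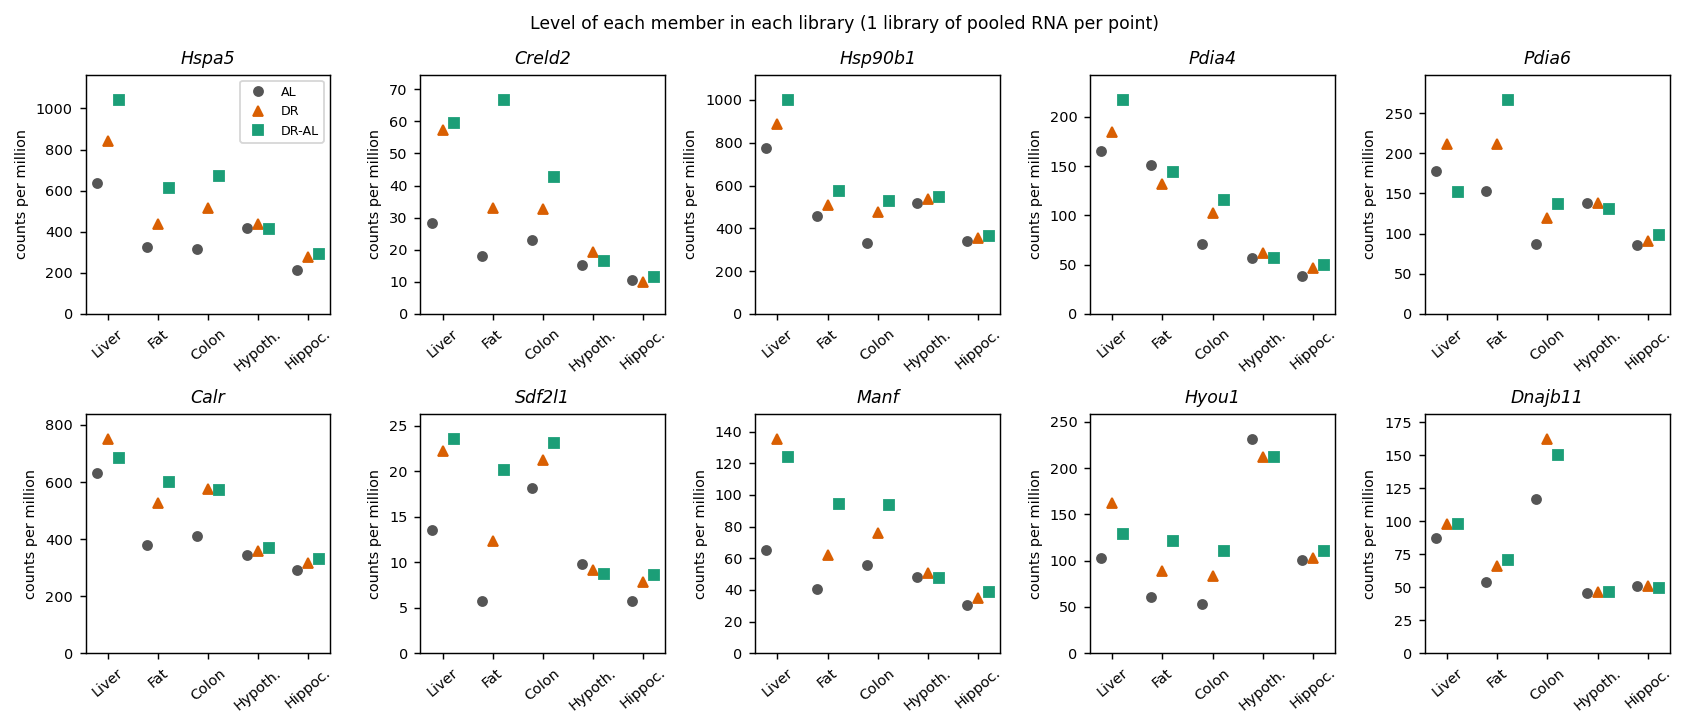
Level of each of the 10 members in the 15 libraries, in CPM on a linear axis that starts at 0, with tissues along the x axis; each point is 1 library of pooled RNA (circle AL, triangle DR, square DR-AL). Hspa5 has its lowest point in AL and its highest in DR-AL in liver, fat and colon, and Hyou1 has its highest points, on this scale, in the hypothalamus.

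In liver, Hspa5, the Hsp70-type chaperone BiP that also holds the stress sensors inactive, was at 639, 842 and 1040 CPM in the AL, DR and DR-AL libraries. Creld2, a secreted disulfide-isomerase-like protein, was at 28.4, 57.3 and 59.5 CPM. Manf, a small protein that is retained in the ER and secreted under stress, was at 65.0, 135 and 124 CPM. All 3 genes thus had their lowest level in AL, with DR and DR-AL about equal for Creld2 and Manf. Manf was 2.07-fold higher in DR than in AL (log2 1.05, 0.96 to 1.14) and Hspa5 1.32-fold (log2 0.40, 0.37 to 0.43). Sdf2l1, a partner of the ER Hsp40 proteins, was at 13.5, 22.2 and 23.5 CPM, and Hyou1, the nucleotide exchange factor of BiP, at 103, 162 and 129 CPM. Hyou1 was thus highest in DR and came part of the way back.

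The other liver members differed by smaller folds. Hsp90b1 (GRP94, the ER Hsp90) was at 774, 886 and 999 CPM, the disulfide isomerase Pdia4 at 165, 185 and 217 CPM, and the calcium-binding lectin chaperone Calr at 632, 749 and 683 CPM. Dnajb11, an Hsp40 co-chaperone of BiP, was at 87.1, 97.9 and 97.8 CPM. Pdia6, a disulfide isomerase, was the 1 member that ended below AL, at 178, 212 and 152 CPM. Of the 9 members other than Creld2, 4 were higher in DR than in AL (Hspa5, Sdf2l1, Manf and Hyou1) and none lower, beside 18.0% of all genes tested called higher and 9.92% lower; the median of the 9 was 0.25 on the log2 scale and that of all genes 0.10. DR-AL against AL gave 6 higher and none lower (15% and 15.8% of all genes; median 0.37 against 0.00 for all genes). DR-AL against DR gave none higher and 2 lower, Pdia6 and Hyou1 (16.9% and 24.0% of all genes). With DESeq size factors the share of higher calls among all genes in DR against AL was 52.0% in place of 64.5%, and 3 of the 9 members were higher. With the coefficient of variation of 0.1 the members called were 3, 3 and 0. A set of 8 circadian clock genes, which did not all move the same way, summed to 233, 418 and 176 CPM in the same libraries. Among them, Arntl was at 2.59, 0.322 and 8.61 CPM and Per2 at 23.7, 65.9 and 9.02 CPM. The 6 plasma cell markers summed to 430, 331 and 554 CPM. Most of this plasma cell sum came from Xbp1 (174, 177 and 234 CPM) and Sdc1 (237, 140 and 305 CPM). Igj was at 4.16, 1.98 and 3.27 CPM and Mzb1 at 14.7, 12.4 and 11.7 CPM. The part of these genes in the result was not tested.

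In epididymal fat, Creld2 was at 18.1, 33.0 and 66.6 CPM in AL, DR and DR-AL and Sdf2l1 at 5.72, 12.3 and 20.2 CPM. Manf was at 40.7, 61.8 and 94.0 CPM and Hyou1 at 61.2, 89.1 and 121 CPM. Hspa5 was at 328, 437 and 612 CPM. All 5 genes had the order AL, DR, DR-AL, and Sdf2l1, Manf, Hyou1 and Hspa5 were called higher at each step. Sdf2l1 was 3.52-fold higher in DR-AL than in AL (log2 1.81, 1.56 to 2.09, on 552 and 150 counts). Pdia6 was at 153, 211 and 266 CPM and Calr at 378, 525 and 599 CPM, whereas Hsp90b1 (456, 509 and 576 CPM) and Dnajb11 (54.2, 65.8 and 71.0 CPM) passed the rule only in DR-AL against AL. Pdia4 was the exception: its 151, 132 and 144 CPM passed in no comparison.

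Of the 9 members, 6 were higher in DR than in AL in fat and none lower, but so were 35.2% of all genes tested, with 10.4% lower. DR-AL against AL gave 8 higher and none lower (46.0% and 11.9% of all genes), and DR-AL against DR 5 higher and none lower (38.3% and 13.3%). The medians of the 9 were 0.47, 0.80 and 0.33 and those of all genes 0.23, 0.39 and 0.28, so the whole fat libraries were shifted the same way. DESeq size factors brought the medians of all genes to 0.03, 0.06 and 0.14 and the share of calls that were higher from 77.3%, 79.5% and 74.3% to 60.4%, 57.4% and 63.5%. On that scale 3, 6 and 3 of the 9 members were higher and 1, 1 and 0 lower, the lower one being Pdia4 (log2 -0.39 and -0.40 against AL). Relative to that centre, DR-AL against AL was 1.48 for Sdf2l1, 0.87 for Manf, 0.65 for Hyou1 and 0.56 for Hspa5, and near 0 for Hsp90b1 (-0.00) and Dnajb11 (0.05). With the coefficient of variation of 0.1 the members called were 3, 6 and 2. The 8 clock genes, which did not all move the same way, summed to 556, 782 and 505 CPM in fat. Among them, Arntl was at 5.15, 3.02 and 14.0 CPM and Per2 at 63.4, 77.8 and 32.9 CPM. The 6 plasma cell markers summed to 342, 305 and 400 CPM. Among them Mzb1 was at 14.4, 37.6 and 108 CPM, in the order AL, DR, DR-AL. Igj (37.9, 12.8 and 42.9 CPM) and Sdc1 (53.9, 20.6 and 26.2 CPM) were lowest in DR, and Xbp1 (233, 232 and 221 CPM) was not called. The part of plasma cell and clock genes was not tested.

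The deposited FPKM of fat gave another direction, for the library as a whole. The median ratio of FPKM to CPM over 7397 genes, relative to liver of AL mice, was 0.335, 0.203 and 0.110 in fat of AL, DR and DR-AL mice. Over the members it was 0.337, 0.203 and 0.110, while in the members the 3 libraries of each other tissue lay between 0.928 and 1 in liver, 0.536 and 0.596 in colon, 0.254 and 0.268 in hypothalamus, and 0.357 and 0.397 in hippocampus. In fat, Hspa5 was thus at 88.7 FPKM in AL and 54.9 in DR-AL, against 328 and 612 CPM. By the 25% limit alone, and from FPKM with a pseudocount of 0.1, 1 of the 9 members was higher and 3 lower in DR than in AL (19.4% and 54% of all genes), and none higher and 8 lower in DR-AL than in AL (18.9% and 66%). Germ cell, epididymis and hepatocyte markers moved between the same 3 libraries as given above.

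In colon, all 9 members other than Creld2 were higher in DR-AL than in AL. Hspa5 was at 318, 514 and 669 CPM, Hyou1 at 53.6, 83.1 and 111 CPM, and Hsp90b1 at 333, 475 and 526 CPM in AL, DR and DR-AL. Hspa5 was 2.11-fold higher in DR-AL than in AL (log2 1.07, 1.04 to 1.11) and Hyou1 2.08-fold (log2 1.05, 0.96 to 1.15). Manf was at 56.0, 75.8 and 93.7 CPM, Creld2 at 22.9, 32.6 and 42.8 CPM, Pdia4 at 71.1, 102 and 116 CPM, and Pdia6 at 87.3, 119 and 137 CPM. These 7 genes had the order AL, DR, DR-AL. Calr (411, 574 and 571 CPM) and Dnajb11 (117, 162 and 150 CPM) reached their level in DR and kept it, and Sdf2l1 had the smallest difference, at 18.2, 21.2 and 23.1 CPM.

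Of the 9 members in colon, 8 were higher in DR than in AL, all but Sdf2l1, and none lower, beside 9.04% of all genes higher and 10.6% lower. All 9 were higher in DR-AL than in AL (5.83% of all genes higher, 8.50% lower). DR-AL against DR gave 2 higher, Hspa5 and Hyou1, and none lower (6.78% and 7.67%). The medians of the 9 were 0.48, 0.66 and 0.18, and those of all genes 0.00, -0.01 and -0.02. With the coefficient of variation of 0.1 the counts were 1, 4 and 0. The 7 goblet cell markers summed to 20983, 23409 and 25986 CPM, 6 markers of absorptive colon epithelium to 27544, 26620 and 25212 CPM and 6 plasma cell markers to 554, 562 and 621 CPM. Most of the plasma cell sum came from Xbp1 (202, 220 and 253 CPM) and Sdc1 (320, 330 and 341 CPM). Igj was at 17.8, 5.30 and 16.3 CPM and Prdm1 at 11.5, 4.67 and 8.78 CPM, both called lower in DR than in AL. The 6 pancreatic acinar markers summed to 219, 254 and 242 CPM, of which Cela1 had 219, 254 and 234 CPM. Ctrb1 was at 0, 0 and 54 counts, Cela2a at 2, 2 and 55 and Pnlip at 0, 0 and 41. Cpa1 was at 2, 0 and 30 counts and Cpb1 at 2, 1 and 27. Each of these but Cela1 was called higher in DR-AL than in AL. The 8 clock genes, which did not all move the same way, summed to 614, 760 and 632 CPM. In DR-AL against AL, Arntl was called higher (29.1, 31.9 and 47.5 CPM) and Per1 lower (72.6, 62.9 and 44.4 CPM). The part of cell types and clock genes in the result was not tested, and in bulk RNA fewer cells of a type and less RNA per cell cannot be told apart.

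In the hypothalamus, Hspa5 was at 420, 439 and 414 CPM, Hsp90b1 at 518, 536 and 545 CPM and Manf at 48.0, 50.8 and 47.4 CPM. None of the 9 members was called in any of the 3 comparisons. The shares of all genes called were 4.33% higher and 2.72% lower in DR against AL, 6.06% and 9.02% in DR-AL against AL, and 2.82% and 6.80% in DR-AL against DR. The medians of the 9 were 0.05, -0.02 and -0.06. The 6 neuron markers summed to 2701, 3034 and 3385 CPM. Slc17a7 among them was at 1.95, 35.0 and 11.8 CPM and was called higher in DR and in DR-AL than in AL. The hypothalamus libraries held 29673910 to 32745522 counts on named loci, and Hspa5 alone had 12467 to 14380 counts, with DR against AL at log2 0.06 (0.03 to 0.10). With DESeq size factors the share of higher calls among all genes in DR-AL against DR was 43.8% in place of 29.3%, and still no member was called.

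In the hippocampus, Hspa5 was at 216, 276 and 294 CPM, Sdf2l1 at 5.75, 7.81 and 8.59 CPM, Pdia4 at 38.7, 47.0 and 49.4 CPM and Manf at 30.7, 34.8 and 38.8 CPM. Hspa5 and Sdf2l1 were higher in DR than in AL (2 of 9, none lower; 1.36% and 2.67% of all genes), and these 2 with Pdia4 and Manf were higher in DR-AL than in AL (4 of 9, none lower; 3.99% and 2.16% of all genes). No member was called in DR-AL against DR (3.63% and 1.26% of all genes). Creld2 was flat, at 10.5, 9.93 and 11.6 CPM. With TMM scaling 1 and 2 members were called in place of 2 and 4, with the share of higher calls among all genes at 41.2% in place of 64.8% for DR-AL against AL, and with the coefficient of variation of 0.1 none was called. The 6 choroid plexus markers summed to 2902, 1778 and 2830 CPM and the 6 neuron markers to 7369, 7239 and 6733 CPM in the same libraries; their part in the result was not tested.

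**Figure D2:**
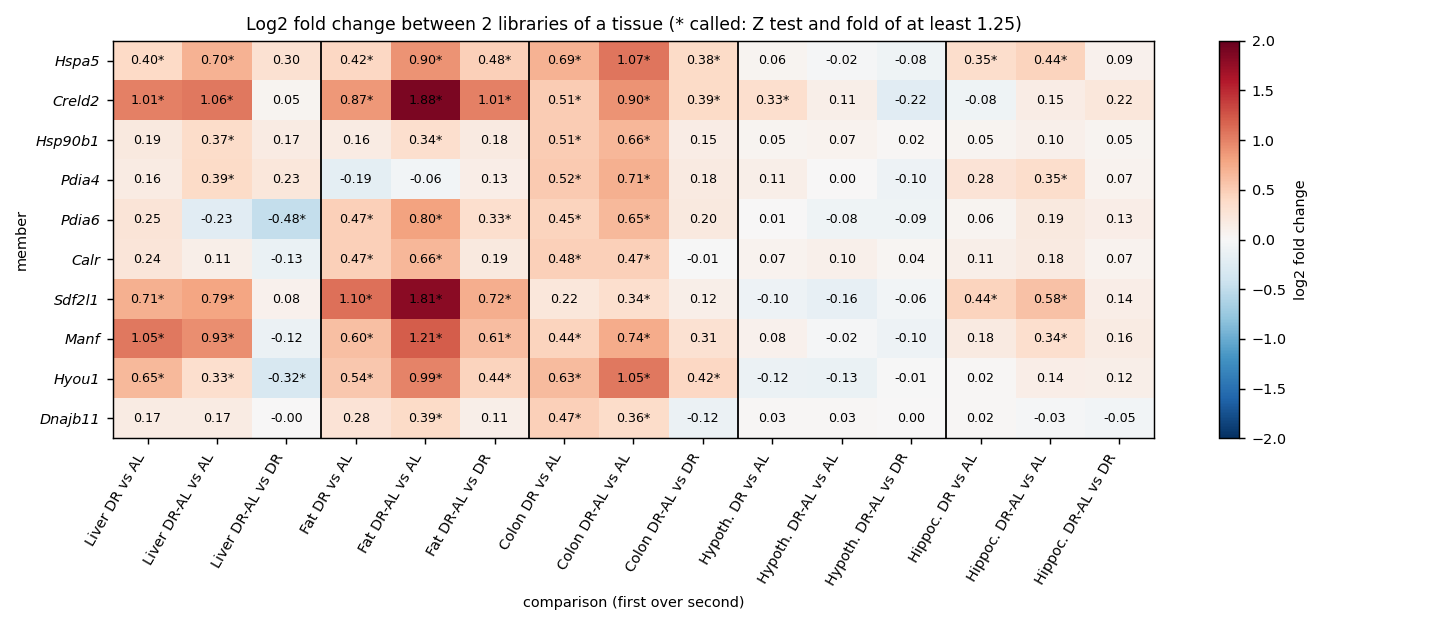
Log2 fold change of each member (rows) in the 15 comparisons of 2 libraries of a tissue (columns), first over second, from CPM; red is higher, blue is lower and an asterisk marks a call by the Z test with a difference of at least 25%. Colon DR-AL against AL is called in all 10 rows, and the hypothalamus has 1 asterisk, for Creld2 in DR against AL.

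Other genes of ER protein handling were read as lists, and their values are from counts, which in fat differ from the FPKM as given above. Among 9 stress sensors, their proteases and transcription factors, 4 were higher and none lower in liver of DR mice (18.0% and 9.92% of all genes). Ddit3, which encodes the transcription factor CHOP, was at 4.12, 12.6 and 7.14 CPM in AL, DR and DR-AL liver, Eif2ak3 at 9.54, 16.8 and 14.5 CPM, Atf4 at 86.8, 133 and 83.9 CPM and Ern1 at 30.5, 45.0 and 33.8 CPM. Atf4 and Ern1 thus came back to near the AL level, while Ddit3 and Eif2ak3 stayed higher. Xbp1 was at 174, 177 and 234 CPM and was called only in DR-AL, and Atf6 was not called, at 61.7, 57.3 and 60.2 CPM. Splicing of Xbp1, by which it is activated, is not seen in these counts. Compared with AL, fat had 1 of the 9 higher in DR, Atf6b (35.2% of all genes), and 3 in DR-AL (46.0%). Ern1 was among those 3 (32.7, 33.9 and 51.5 CPM). Colon had none in DR (9.04% of all genes) and 2 in DR-AL (5.83%). These were Eif2ak3 (46.7, 51.0 and 66.4 CPM) and Xbp1 (202, 220 and 253 CPM).

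Of 6 targets of the PERK and ATF4 branch, none was higher and 2 were lower in liver of DR mice (18.0% and 9.92% of all genes), none higher and 3 lower in fat (35.2% and 10.4%), and 1 higher and 3 lower in colon (9.04% and 10.6%). In colon 2 of the lower calls rested on few counts, 8 against 17 for Trib3 and 23 against 35 for Chac1. None was called in hypothalamus, and 1 was higher (Atf3) and 1 lower (Ppp1r15a) in hippocampus (1.36% and 2.67% of all genes). Sesn2, a stress-induced regulator of nutrient signalling, was at 17.7, 8.50 and 7.88 CPM in liver. In fat it was at 84.5, 31.3 and 157 CPM, which is a 5.01-fold step from DR to DR-AL (log2 2.33, 2.21 to 2.44). Trib3, a pseudokinase induced by ATF4, was at 15.1, 7.67 and 17.7 CPM in fat. In DR-AL against DR, 4 of the 6 were higher in fat and none lower (38.3% and 13.3% of all genes). Atf3 in colon was at 59.4, 76.4 and 103 CPM.

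Of 13 genes of ER-associated degradation, which removes misfolded proteins, 4 were higher and 1 lower in liver of DR mice, none higher and 2 lower in fat, and none in either direction in colon. Of all genes, 18.0% were higher and 9.92% lower in liver, 35.2% and 10.4% in fat and 9.04% and 10.6% in colon. Syvn1, the ubiquitin ligase HRD1, was at 62.9, 141 and 84.4 CPM in liver and was the 1 gene of the list called in colon of DR-AL mice against AL (48.1, 54.4 and 75.0 CPM). Herpud1 and Edem1 were lower in fat of DR mice (log2 -0.44 and -0.43) and higher in liver (0.56 and 0.50). Of 19 other folding factors, 5 were higher and 1 lower in liver of DR mice and 5 higher and 6 lower in DR-AL. In fat the counts were 6 and 1 in DR and 8 and 1 in DR-AL, and in colon 4 and 0, and 3 and 0. Dnajc10, an ER reductase that works with BiP, was at 84.5, 170 and 326 CPM in fat. Uggt1, the glucosyltransferase that returns misfolded glycoproteins to the lectin chaperones, was at 74.4, 104 and 105 CPM in colon, and the oxidase Ero1lb was lower in liver of DR-AL than of AL mice (log2 -0.71), where Hspa5 was higher.

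Of 14 genes of protein translocation into the ER, 6 were higher and none lower in DR against AL in liver (18.0% of all genes higher) and in fat (35.2%), and 1 was higher in colon (9.04%). Sec61b and Srprb led in liver (log2 0.68 and 0.65), and Srprb and Sec61a1 in fat (0.58 and 0.43). Of 10 genes of transport between ER and Golgi, 3 were higher and 1 lower in liver and in fat and 3 were higher in colon, where Sec24d (0.51) and Sec23b (0.36) led. Of all genes, 9.92% were lower in liver and 10.4% in fat, and the higher shares are those given above. In the hypothalamus of DR-AL mice, none of the 10 transport genes was higher and 2 were lower (6.06% and 9.02% of all genes). These were Lman1 and Surf4 (log2 -0.42 and -0.37). In DR-AL against AL the medians of the translocation and transport lists were 0.22 and 0.12 in liver, 0.30 and 0.13 in fat and 0.12 and 0.11 in colon, beside 0.37, 0.80 and 0.66 for the 9 members.

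Relatives of the members, most of which work outside the ER lumen, were read in the same way. Hsph1, a cytosolic relative of Hyou1, was at 45.5, 55.1 and 98.8 CPM in liver, 17.6, 37.7 and 48.3 CPM in fat and 18.1, 42.4 and 80.0 CPM in colon. Hsp90aa1, the inducible cytosolic relative of Hsp90b1, was at 169, 151 and 338 CPM in liver, 169, 296 and 599 CPM in fat and 139, 237 and 309 CPM in colon. Both were raised in DR and DR-AL in fat and colon, and only in DR-AL among the liver libraries. Creld1 (41.8, 37.1 and 44.7 CPM) and Sdf2 (28.7, 29.3 and 31.2 CPM), the closest relatives of Creld2 and Sdf2l1, were not called in liver. Over 9 relatives, none was called in liver of DR mice, 5 were higher in fat (35.2% of all genes) and 4 in colon (9.04%), and no relative was lower in these 3 comparisons; none was called in either brain region.

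**Figure D3:**
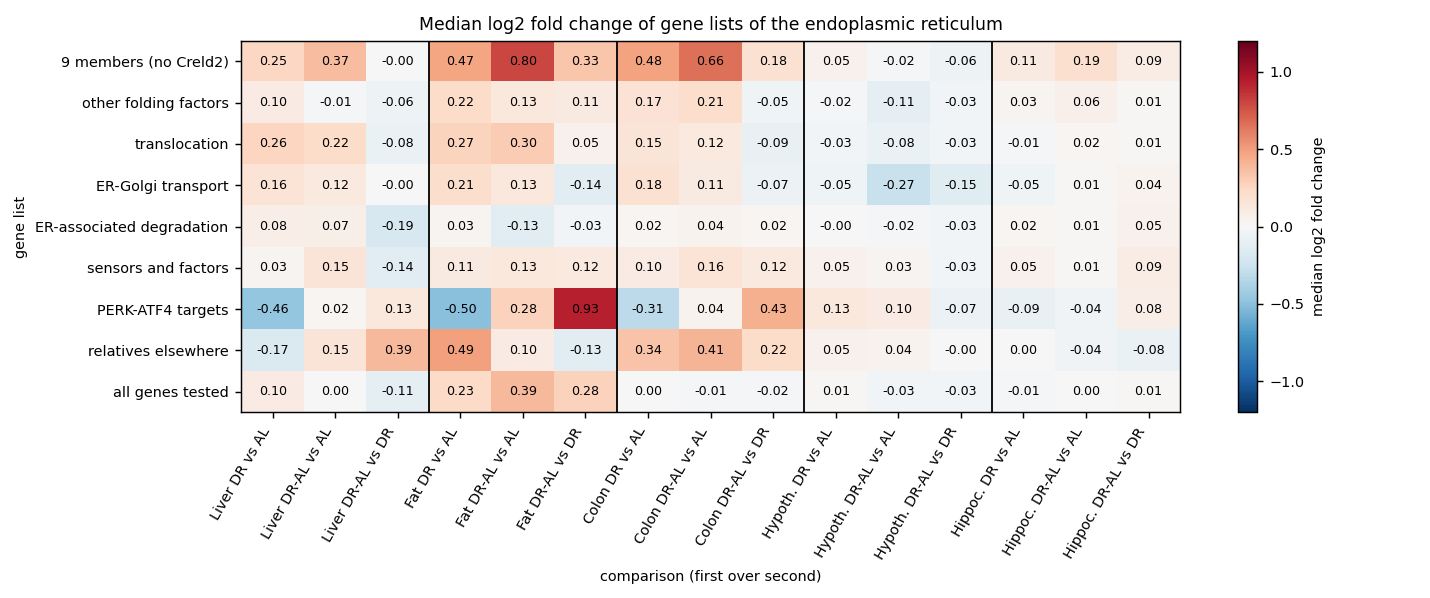
Median log2 fold change, from CPM, of the 9 members other than Creld2, of 7 other lists and of all genes tested (rows) in the 15 comparisons (columns), first over second. The 9 members have medians of 0.37, 0.80 and 0.66 in DR-AL against AL in liver, fat and colon, where all genes have 0.00, 0.39 and -0.01, and the PERK and ATF4 targets have medians of -0.50 in DR against AL and 0.93 in DR-AL against DR in fat.

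To ask for a diet effect shared by the 5 tissues, the 15 libraries were fitted together in edgeR with tissue as a factor, so that the tissues served as replicates although they came from the same pools of mice. No member was called in any contrast. Background calls were 2 of 17476 genes for DR against AL (0.0114%), 1 for DR-AL against AL (0.00572%) and 2 for DR-AL against DR (0.0114%). At an unadjusted p below 0.05 the 9 members gave 1, 4 and 0 and all genes 657, 862 and 656. For DR-AL against AL, Hspa5 was higher by 0.56 ± 0.15 on the log2 scale (SE, edgeR quasi-likelihood adjusted p = 0.852), Manf by 0.57 ± 0.15 (adjusted p = 0.852) and Sdf2l1 by 0.60 ± 0.19 (adjusted p = 0.852). Creld2 had 0.77 ± 0.21, given as a description. The DESeq2 Wald test called none of the 9 either, with 3, 6 and 0 at an unadjusted p below 0.05. Its lowest adjusted p among them was 0.0519, for Hspa5 in DR-AL against AL (0.56 ± 0.14). By the within-tissue rule, Hspa5, Sdf2l1 and Manf were each called higher in DR-AL than in AL in 4 of the 5 tissues, all but the hypothalamus. In fat, however, 46.0% of all genes were called higher. The deposited FPKM there was lower in DR-AL than in AL for Hspa5 (54.9 against 88.7) and Manf (20.7 against 27.6). For Sdf2l1 it was 4.52 against 3.93. In hippocampus none of these genes was called with the coefficient of variation of 0.1.

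The level of the members between tissues did not enter their choice and could be tested, with the 3 libraries of a tissue as replicates that differ in diet and age. With edgeR and TMM scaling, all 10 members were higher in liver than the mean of the other 4 tissues and none lower (33.6% of all genes higher, 41.0% lower), by log2 2.31 ± 0.12 for Pdia4 (edgeR adjusted p = 3.24e-08), 2.15 ± 0.19 for Creld2 (adjusted p = 1.18e-06), 2.10 ± 0.14 for Hspa5 (adjusted p = 1.43e-07) and 1.23 ± 0.15 for Hyou1 (adjusted p = 2.04e-05). In the hippocampus none was higher and 9 were lower, all but Hyou1 (37.4% and 34.4% of all genes). In the hypothalamus 9 were lower and 1, Hyou1, was higher (38.8% and 32.0%). Hyou1 in hypothalamus was higher by 0.64 ± 0.16 (edgeR adjusted p = 0.00329), less than in liver in the same fit. In CPM, which are scaled by totals, the order was the other way, with 231, 212 and 212 CPM in hypothalamus and 103 to 162 CPM in liver.

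In colon 5 members were higher and 1, Hyou1, lower (33.3% and 37.9% of all genes), led by Dnajb11 at 1.34 ± 0.08 (edgeR adjusted p = 5.55e-08) and Sdf2l1 at 1.02 ± 0.18 (adjusted p = 0.000377). In fat Pdia4 was higher and 5 were lower (37.6% and 25.9%), with Hyou1 at -0.95 ± 0.17 (adjusted p = 0.000686). These counts depend on the scaling between tissues. With the totals of named loci in place of TMM, 9 were higher in liver, all but Hyou1, and the differences were smaller, at 1.28 ± 0.11 for Pdia4, 1.11 ± 0.22 for Creld2, 1.06 ± 0.14 for Hspa5 and 0.20 ± 0.18 for Hyou1 (edgeR adjusted p = 0.317). In fat 3 were higher and 2 lower, in colon 2 and 3, in hypothalamus 1 and 4, and in hippocampus 0 and 9. Without the DR libraries, 2 of the 9 members other than Creld2 were called in fat and 2 in colon, in place of 6 and 5. With TMM, totals and DESeq size factors alike, Hyou1 was called higher in hypothalamus and Dnajb11 and Sdf2l1 higher in colon. Pdia4 in fat was not called with DESeq size factors (0.30 ± 0.14, edgeR adjusted p = 0.0836), and no member was called higher in fat with DESeq2, without the filter on low counts, without the AL libraries or without the DR libraries.

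**Figure D4:**
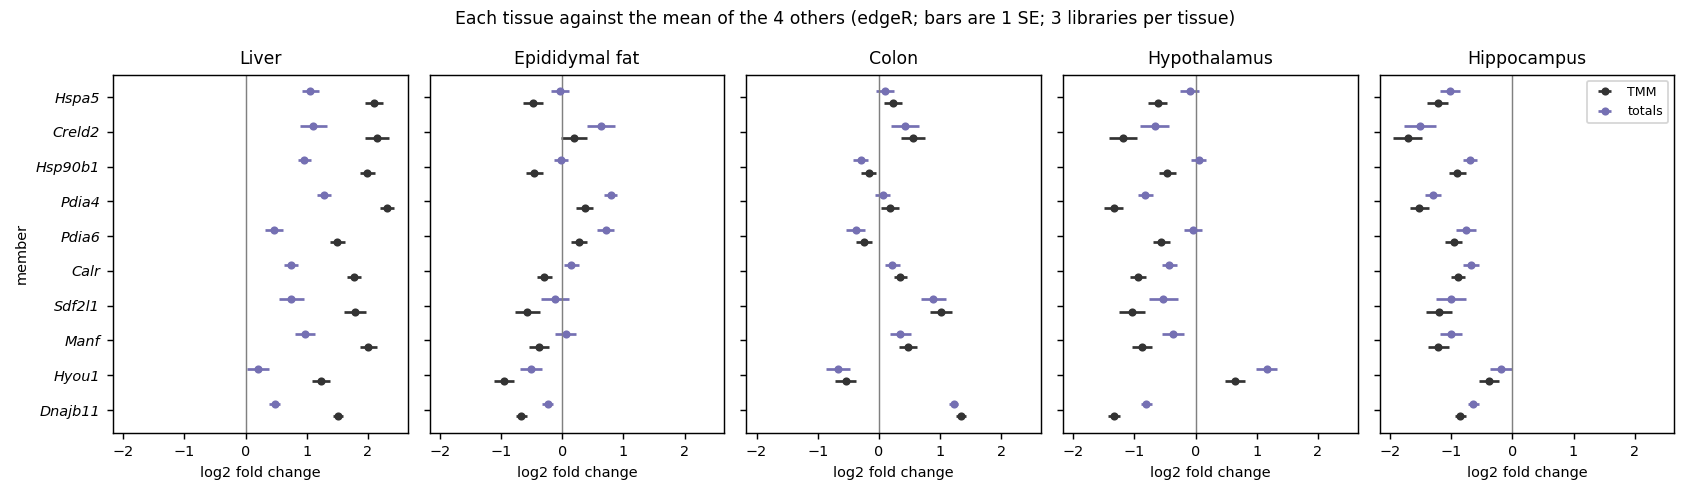
Log2 fold change of each member in a tissue against the mean of the 4 other tissues, from edgeR, with bars of 1 SE; dark points use TMM scaling and purple points the totals of named loci, and each tissue has 3 libraries. All dark points of liver lie to the right of 0, and Hyou1 is the only member to the right of 0 in the hypothalamus with TMM.

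Levels of the members were also compared with each other across libraries. After the mean of each tissue was taken off, the log2 CPM of the 36 pairs of members other than Creld2 had a median Pearson r of 0.81 over the 15 libraries (0.30 to 0.95), and 33 pairs were above 0.5. Over all pairs of 7863 other genes the median was 0.05, and 17.1% were above 0.5. With DESeq size factors the members' median was 0.70 (0.05 to 0.88) and 28 pairs were above 0.5. With Creld2, the 45 pairs had a median of 0.82, and 0.79 without the 3 fat libraries. The points share libraries, depth and pools of mice, and the values are a description. Creld2, part of whose values chose the genes, had its highest r with Manf (0.97), and the lowest pair was Pdia4 and Sdf2l1 (0.30). Pdia4 had r = 0.55 against the mean of the 9 others, Creld2 included, while the other members had 0.80 to 0.95 in the same way. Taken singly, Pdia4 had r = 0.82 with Hsp90b1 and 0.78 with Hspa5, and 0.30 to 0.56 with each of the rest. Among these 7863 genes, each with at least 100 counts on average in each tissue, the 5 whose pattern over the 15 libraries was most like the mean of the members were the locus named Rbm14,Rbm4 (r = 0.95), Trmt2a (0.94), and Dynll1, Srsf10 and Rpain (0.93 each).

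The genes lie on 8 chromosomes in the GENCODE M21 annotation of GRCm38 and were read at 1 locus each. Hspa5 is at chr2:34771970-34777547, Creld2 at chr15:88819646-88826683 and Hyou1 at chr9:44379490-44392369, all on the plus strand, and Manf is at chr9:106838312-106891979 on the minus strand. Only chromosomes 9 and 16 hold a pair of members, Manf with Hyou1 and Sdf2l1 with Dnajb11. The locus of Pdia4 also carries the name of the microRNA gene Mir704, so its counts are those of both. Per length, in the deposited FPKM of AL liver, Calr (559), Hspa5 (499) and Hsp90b1 (490) were the highest and Sdf2l1 (31.0) and Creld2 (42.4) the lowest of the 10.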

How the data were processed

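RNA was pooled from 5 mice per group and tissue, and 15 libraries were sequenced. The authors trimmed the reads, mapped them by orientation, removed duplicate reads (which can lower the counts of abundant genes most) and deposited raw counts and FPKM for 33603 loci, 23589 of them with a gene name. The study's methods name mm10 and the submitters' processing notes mm9, so gene positions were taken from the annotation and not from the deposited table. From the deposited counts, CPM of named loci were computed; loci with no name held 0.258% to 1.39% of counts and were left out of totals and tests. Depth gave exact 95% intervals that cover counting error only.

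Within a tissue, 2 libraries were compared by a two-sided Z test (Benjamini-Hochberg over genes with at least 1 count, adjusted p below 0.05, higher level at least 25% above the lower). Shared diet effects and tissue levels were tested with edgeR 4.0.16 quasi-likelihood fits (TMM, filterByExpr; R 4.3.3), with DESeq2 1.42.0 as an alternative; folds of the deposited FPKM used pseudocounts of 0.1 and 1. The edgeR quasi-likelihood fit was checked on simulated data for an effect of DR against AL shared by the 5 tissues. The members and lists were chosen with earlier results of these data known. Named genes are the 10 members, the sensors and their factors, and of each list, with a mean of at least 100 counts in the tissue, up to 2 called genes per direction and comparison with the largest change; the 5 most similar genes by correlation; other genes were named after their values were seen.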

Additional observations from a re-analysis of the deposited data

Results flagged for a closer look

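A second locus carries the name Creld2 on the opposite strand and was not used in the report. Its counts were 88 in fat of AL mice, 19 in fat of DR mice and 47 in fat of DR-AL mice, against at most 2 in each of the other 12 libraries, where 3 counts are the limit that a count of 0 allows. In fat the locus on the annotated strand had 475, 754 and 1821 counts in the same order. What this signal is was not tested.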

How the results depend on the processing

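Within a tissue, members called of 9 by the edgeR exact test with a coefficient of variation of 0.1 were 3 (liver DR-AL against AL), 0 (liver DR-AL against DR), 3 and 2 (fat, first and last comparison), 1, 4 and 0 (colon, DR against AL, then DR-AL against AL, then DR-AL against DR), and 0 and 0 (hippocampus DR and DR-AL against AL); a fold of 1.5 gave 3, 0, 2, 2, then 2 and 0 in colon (first and last comparison), and 0 and 0 in hippocampus. DESeq size factors gave 3 in fat DR-AL against DR, and TMM 1 and 2 in hippocampus DR and DR-AL against AL. FPKM gave 1 in liver DR-AL against DR, 5 in colon DR-AL against DR and 7 in hippocampus DR-AL against AL with either pseudocount, and 3 in fat DR against AL with a pseudocount of 1. Of 150 member values, 0 to 1 changed sign under each scaling of counts (Hsp90b1 in fat, DR-AL against AL, -0.00 with DESeq size factors) and 23 with either FPKM pseudocount, all in fat; the cause was not tested. With pseudocounts of 0.1 and 1 these were, for DR against AL, Hspa5 -0.28 and -0.28, Hsp90b1 -0.56 and -0.55, Pdia6 -0.23 and -0.22, Calr -0.30 and -0.29, Manf -0.17 and -0.16, Hyou1 -0.25 and -0.22, and Dnajb11 -0.43 and -0.41. For DR-AL against AL they were Hspa5 -0.69 and -0.68, Hsp90b1 -1.27 and -1.26, Pdia6 -0.81 and -0.79, Calr -0.97 and -0.96, Manf -0.41 and -0.40, Hyou1 -0.67 and -0.59, and Dnajb11 -1.21 and -1.12. For DR-AL against DR they were Hspa5 -0.41 and -0.40, Hsp90b1 -0.72 and -0.70, Pdia4 -0.71 and -0.67, Pdia6 -0.58 and -0.57, Calr -0.68 and -0.67, Sdf2l1 -0.13 and -0.11, Manf -0.25 and -0.24, Hyou1 -0.42 and -0.37, and Dnajb11 -0.77 and -0.71. For the shared diet effect, genes called in the same 3 contrasts were 12, 8 and 9 with DESeq2, 0, 0 and 0 without the tissue term, 8 and 17 in the first 2 without the filter on low counts, and 1 and 1 in the first and last with totals of named loci, a scaling chosen after seeing the data; leaving out each tissue in turn gave 1 (without liver) to 19 (without fat), 7 to 16 and 1 to 13, and no setting called a member. For tissue levels, totals called 4 of the 9 in hypothalamus, and leaving out each diet in turn called 2 to 6 in fat and 2 to 4 in colon, the lowest without DR. The labels give no replicate numbers; in the shared fit the tissue term pairs the diets within a tissue.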

Other observations

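An exact ERSE or ERSE-II was also found in the promoter windows of 43 genes that are no member, a set chosen after the values were seen. Of these, 15 had a mean of at least 100 counts in liver, where 8 were higher and 2 lower in DR than in AL (18.0% and 9.92% of all genes) and the median was 0.40 on the log2 scale. In fat 8 of 21 were higher and 2 lower (35.2% and 10.4% of all genes). In colon 1 of 15 was higher and 1 lower in DR against AL (9.04% and 10.6% of all genes). In DR-AL against AL, where all 9 members were higher, 2 were higher and none lower (5.83% and 8.50%). In both brain regions at most 2 were called in either direction in a comparison. The shares of all genes are over genes with at least 1 count, many of them too low to be called, so the thresholds are unlike. Among them, Canx, the membrane-bound lectin chaperone, differed from AL in DR liver by -0.11 and in DR-AL fat by 0.59.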
